A study of Drosophila melanogaster with 2 samples.

Results

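The genes described here encode the translation initiation factors and the aminoacyl-tRNA synthetases of Drosophila melanogaster, and the measurement is the binding of the transcriptional corepressor Gug, also called Grunge or Atrophin, near their transcript starts. Members were the protein-coding genes of the Ensembl BDGP6 annotation whose symbol begins with eIF and a digit, or is a three-letter amino acid code (or GluPro) followed by RS or RS-m. The rule found 77 of the 13945 protein-coding genes on the chromosome arms, of which 44 were initiation factor genes and 33 were synthetase genes. Of the synthetase genes, 18 had no suffix and are called cytoplasmic here, and 15 carried the suffix -m for mitochondrial. No measured value entered the rule.

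Chromatin came from whole prepupae (1 day) of the Gug-GFP line, which carries an insertion that targets Gug and makes a Gug-eGFP fusion protein, and was immunoprecipitated with an antibody to GFP. The labels define 1 group with 2 biological replicates, chromatin sheared by sonication to a size range of 200 to 800 bp, and no sex. The animals were taken whole, so a peak can come from any of their cell types, and a strong peak in few cells cannot be told apart from a weak one in many. Read depth is unknown. The lists hold 5753 peaks for both replicates together (the joint list), 3827 for replicate 1 alone and 4000 for replicate 2 alone. A peak in these lists passed a threshold of 0.01 on the irreproducible discovery rate (IDR), a measure of how reproducibly peaks rank between repeated measurements.

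Protein synthesis begins when initiation factors load the initiator tRNA and an mRNA onto the small ribosomal subunit. eIF2 carries the initiator tRNA, eIF2B recycles eIF2, the large eIF3 complex scaffolds the subunit, the eIF4 factors bind the mRNA cap and unwind the leader, and eIF5B joins the large subunit. Aminoacyl-tRNA synthetases charge each tRNA with its amino acid, and those of mitochondria are encoded in the nucleus, many by separate genes. Under the naming rule, GlnRS, GlyRS, HisRS, LysRS and ThrRS had no -m counterpart, so the compartments here follow the suffix alone. Gug is an Atrophin family corepressor that reaches DNA through other proteins.

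With a summit counted for every gene that starts near it, Gug-eGFP summits lay near a larger share of the cytoplasmic synthetase genes than of the mitochondrial ones, the initiation factor genes or genes in general. With each summit given only to the gene of the nearest start, the order turned, and the cytoplasmic synthetases, at 2 of 18 or 11.1% (95% exact interval 1.38 to 34.7), were below the initiation factors at 15.9% and all protein-coding genes at 14.1%. Counted for every gene near it, a summit of the joint list was at most 1000 bp from a transcript start for 7 of the 18 cytoplasmic synthetase genes, 38.9% (95% exact interval 17.3 to 64.3), and for 2 of the 15 mitochondrial ones, 13.3% (1.66 to 40.5). Over both compartments this was 9 of 33 synthetase genes, 27.3% (13.3 to 45.5), and for the initiation factor genes it was 8 of 44, 18.2% (8.19 to 32.7). Among all protein-coding genes the share was 18.9%, or 2638 of 13945. The exact interval of each of these 4 groups of genes contained 18.9%, and the cytoplasmic and mitochondrial intervals overlapped. These intervals cover counting error only, and no test was made of the differences.

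The cytoplasmic synthetase share was the highest in each replicate. In replicate 1 alone, a summit was near 6 of 18 cytoplasmic synthetase genes, 2 of 15 mitochondrial ones and 6 of 44 initiation factor genes, against 14.3% of all protein-coding genes. In replicate 2 alone, the counts were 6 of 18, 2 of 15 and 7 of 44, against 14.9%. In both replicates the share of cytoplasmic synthetase genes, 33.3%, was above the background of that replicate. Its exact interval, 13.3 to 59.0 in each replicate, contained that background. The shares of mitochondrial synthetase genes, 13.3%, and of initiation factor genes, 13.6% in replicate 1 and 15.9% in replicate 2, stood close to it.

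**Figure D1:**
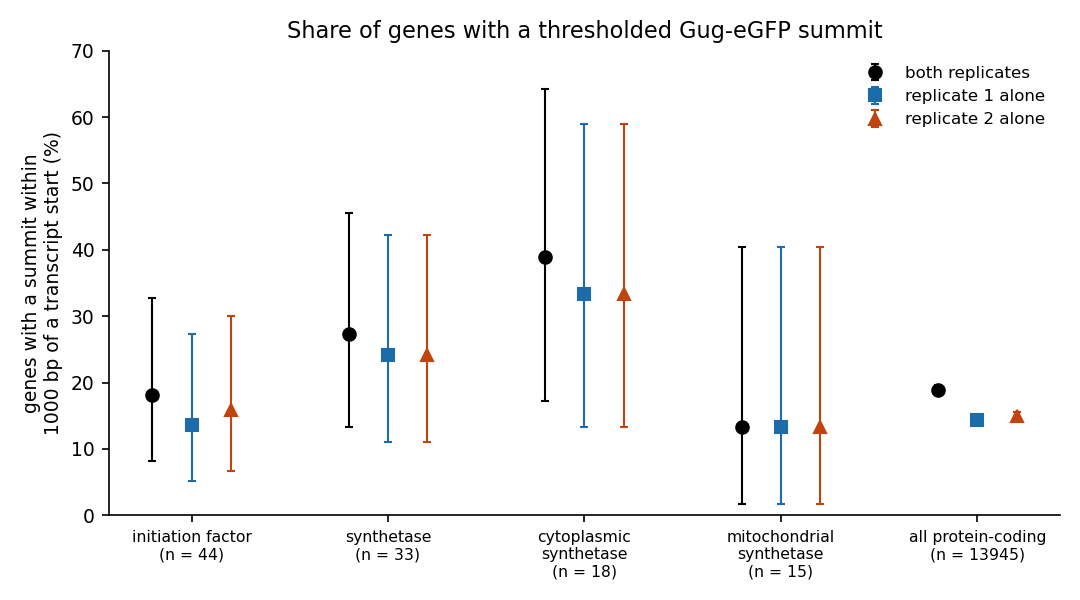
Share of genes, in percent, with a summit at most 1000 bp from a transcript start, for the joint list (circles), replicate 1 alone (squares) and replicate 2 alone (triangles), with 95% exact binomial intervals. The cytoplasmic synthetase genes are highest in all 3 lists, at 38.9%, 33.3% and 33.3%, and their intervals overlap those of the other families.

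Reference sequence under 7 of the summits is shown, because most synthetase summits lay in the short gap between a synthetase gene and a neighbour that reads the other way. Each run is RefSeq's dm6 reference sequence from 100 bases before to 100 bases after the summit, cut back where an annotated exon begins, in lower case. Capitals mark a match to a promoter motif on either strand, TATAAA in the runs of ThrRS and ProRS-m and GAGAG in that of ArgRS. The summit follows the first 100 bases of each run, except that it is base 37 in the run of eIF2Bbeta. The runs for GluProRS, IleRS, ThrRS, ArgRS and ProRS-m lie between the start of that synthetase gene and the divergent start of AP-1sigma, Hem, Patsas, CG8578 and Snup. The run for eIF2Bbeta lies beside the start of Ugalt, and eIF2D stands for a gene whose summit has no other coding start within 1000 bp.
GluProRS (chr3R:23958433-23958633, plus strand): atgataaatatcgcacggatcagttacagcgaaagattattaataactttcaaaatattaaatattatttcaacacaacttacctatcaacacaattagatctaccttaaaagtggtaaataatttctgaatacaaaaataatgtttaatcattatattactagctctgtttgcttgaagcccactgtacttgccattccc
IleRS (chr3L:22288400-22288600, plus strand): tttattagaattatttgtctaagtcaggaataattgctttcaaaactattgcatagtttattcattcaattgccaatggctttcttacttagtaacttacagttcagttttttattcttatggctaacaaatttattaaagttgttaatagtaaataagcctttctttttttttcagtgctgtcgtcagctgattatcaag
ThrRS (chr2L:12103453-12103653, plus strand): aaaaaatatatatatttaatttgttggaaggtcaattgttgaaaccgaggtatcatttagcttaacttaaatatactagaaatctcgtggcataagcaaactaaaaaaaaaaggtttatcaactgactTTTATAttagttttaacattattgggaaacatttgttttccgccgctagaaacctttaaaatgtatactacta
ArgRS (chrX:15844228-15844428, plus strand): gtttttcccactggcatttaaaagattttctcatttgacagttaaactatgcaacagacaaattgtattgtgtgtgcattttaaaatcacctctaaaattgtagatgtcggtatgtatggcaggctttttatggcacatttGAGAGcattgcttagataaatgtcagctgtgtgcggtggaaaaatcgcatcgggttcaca
ProRS-m (chr3L:2651915-2652087, plus strand): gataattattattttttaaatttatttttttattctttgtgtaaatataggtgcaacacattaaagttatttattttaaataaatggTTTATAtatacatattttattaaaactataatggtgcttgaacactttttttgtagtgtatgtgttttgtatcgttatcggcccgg
eIF2Bbeta (chrX:2703853-2703989, plus strand): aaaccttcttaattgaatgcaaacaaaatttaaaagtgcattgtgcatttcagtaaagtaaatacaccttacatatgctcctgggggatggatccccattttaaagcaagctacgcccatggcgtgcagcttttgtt
eIF2D (chr3R:29151815-29152015, plus strand): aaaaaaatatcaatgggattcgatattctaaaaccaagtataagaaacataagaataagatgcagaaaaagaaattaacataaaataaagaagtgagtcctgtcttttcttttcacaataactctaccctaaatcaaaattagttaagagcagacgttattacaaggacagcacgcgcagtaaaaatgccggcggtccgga

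Most synthetase windows, 7 of 9, were lower in G and C than the median summit. In 201 bp around the summit, GC content was 28.9% at GluProRS, 27.4% at IleRS, 26.9% at ThrRS, 37.3% at ArgRS and 25.4% at ProRS-m. The median over the 9 synthetase summits was 27.4% (25.4 to 37.3). For the 9 initiation factor summits, with both of eIF3h counted, the median was 40.8% (28.9 to 54.7). For all 5750 summits on the arms it was 35.3% (17.4 to 74.1). Only the ArgRS and AspRS windows among the synthetases were above the median of all summits, and the 2 families overlapped. The part of GC content in the signal was not tested.

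Among the cytoplasmic synthetases the strongest summits were at SerRS and GluProRS. The signal is the authors' value for a peak, without a stated unit, and is used here to rank peaks within a list. SerRS, the seryl-tRNA synthetase gene (FBgn0031497, arm 2L), had a signal of 323 in the joint list, 163 in replicate 1 alone and 152 in replicate 2 alone, at a summit 21 bp upstream of its start. GluProRS encodes the bifunctional enzyme that charges both glutamate and proline tRNAs (FBgn0005674, arm 3R). Its summit lay 142 bp upstream, with a signal of 316 in the joint list, 116 in replicate 1 alone and 186 in replicate 2 alone. The replicates lay close together at SerRS and further apart at GluProRS, with the higher value in replicate 1 at SerRS and in replicate 2 at GluProRS.

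IleRS, ThrRS and ArgRS, for isoleucine, threonine and arginine, followed. The summit of IleRS (arm 3L) was 165 bp upstream, with a signal of 243 in the joint list, 138 in replicate 1 alone and 99.96 in replicate 2 alone. That of ThrRS (arm 2L) was 198 bp upstream, with 222, 109 and 114 in the same order, and that of ArgRS (arm X) was 183 bp upstream, with 200, 97.8 and 98.9. These 5 peaks, SerRS and GluProRS included, were in the list of each replicate and ranked between 543 and 1259 of 5753 by signal.

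AspRS and ValRS, the aspartyl- and valyl-tRNA synthetase genes, had weaker peaks that were in the list of 1 replicate each. AspRS (arm 2R) had a signal of 94.9 in the joint list, 29.3 in replicate 1 alone and 56.7 in replicate 2 alone, and only the replicate 2 list held it. ValRS (arm 2R) had 85.7, 41.6 and 43.2, and only the replicate 1 list held it. The AspRS summit was 96 bp and the ValRS summit 433 bp upstream. All 7 cytoplasmic summits were upstream of the nearest start of the synthetase gene and within 500 bp of it. Most summits near coding genes were as close, with 1889 of 2428 within 500 bp of a coding start. Their side of the start was not counted. For AspRS, which has 3 annotated starts, the nearest is an internal one, and the summit lay inside the gene, 3184 bp downstream of the first start.

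Both mitochondrial genes with a summit had it in the list of each replicate. LeuRS-m, for leucine (FBgn0027085, arm 3L), had a signal of 402 in the joint list, 157 in replicate 1 alone and 245 in replicate 2 alone, above every cytoplasmic synthetase. Its summit was 885 bp upstream, just inside the 1000 bp limit, and lay in an intron of Dhc64C, the cytoplasmic dynein heavy chain gene. ProRS-m, for proline (FBgn0027082, arm 3L), had 151 in the joint list, 75.7 in replicate 1 alone and 73.8 in replicate 2 alone, at 165 bp upstream. With a limit of 500 bp only ProRS-m was left, 1 of 15 genes or 6.67%, against 15.8% of all protein-coding genes. The exact interval, 0.169 to 31.9, contained that background.

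Initiation factor genes held the strongest peaks of the 77 genes and also the weakest. The highest signal was near eIF2Bbeta, a subunit of the nucleotide exchange factor of eIF2 (FBgn0024996, arm X), with 2084 in the joint list, 979 in replicate 1 alone and 1120 in replicate 2 alone. This peak ranked 3 of 5753, but its summit was 682 bp upstream of eIF2Bbeta and 37 bp upstream of Ugalt, a UDP-galactose transporter gene that reads the other way. With summits given to the nearest start alone, eIF2Bbeta had none. eIF6, which keeps the large ribosomal subunit from joining too early (FBgn0034915, arm 2R), had 1257 in the joint list, 546 in replicate 1 alone and 707 in replicate 2 alone, rank 19. Its summit was 103 bp upstream, closer than to any other coding start, and lay in an exon of the noncoding antisense gene asRNA:CR45928.

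The other initiation factor peaks were more modest. eIF5B (arm 3L) had 202 in the joint list, 84.1 in replicate 1 alone and 112 in replicate 2 alone, at 116 bp upstream of the nearer of its 2 starts and 258 bp downstream of the other, in an exon of eIF5B outside its coding sequence. eIF3c (arm 2R), for a core eIF3 subunit, had 186, 85.0 and 96.9 at 37 bp upstream. eIF3h (arm 2L), for another subunit, had 2 summits. The stronger, in an intron of the gene, lay 296 bp downstream of the nearer of its 2 starts and 610 bp past the other. Its signals were 136, 67.9 and 71.0. All 3 genes had a peak in the list of each replicate. The second eIF3h summit lay in a coding exon, 94 bp downstream of the nearer start and 408 bp past the other. It had a signal of 25.7, matched only a weak replicate 2 peak of 16.8, and was in the list of neither replicate.

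Peaks at eIF2D, eIF1A and eIF3m were in the list of 1 replicate each. eIF2D, for a factor of non-canonical initiation and ribosome recycling (arm 3R), had 98.9 in the joint list, 44.7 in replicate 1 alone and 54.1 in replicate 2 alone, at 121 bp upstream. eIF1A (arm 3R), which acts in start codon scanning, had 86.4, 31.0 and 57.5 at 908 bp downstream, in its own intron and just inside the limit. eIF3m (arm 2R) had 79.6, 46.4 and 31.6 at 108 bp upstream, and the authors' conservative list did not hold it. The replicate 2 list held the first and second of these peaks, and the replicate 1 list held the third.

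**Figure D2:**
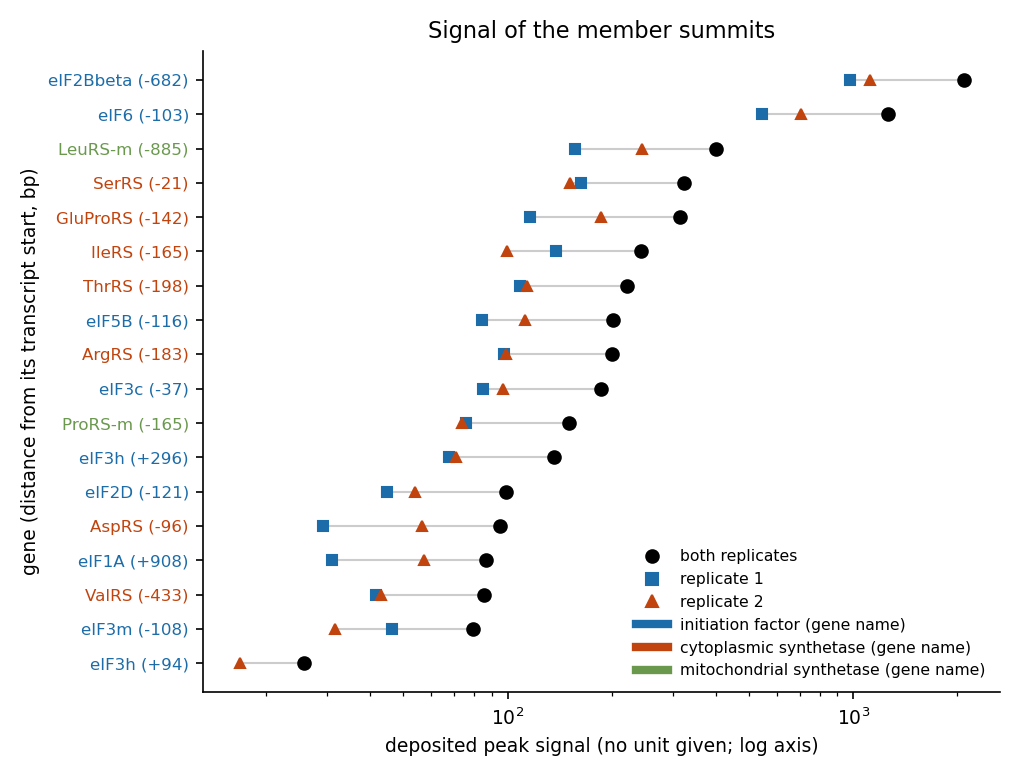
Deposited peak signal (log axis, no unit given) of the 18 summits within 1000 bp of a member's transcript start, in the joint list (circles), in replicate 1 (squares) and in replicate 2 (triangles), with gene names coloured by family and the distance to the start in bp. eIF2Bbeta at 2084 and eIF6 at 1257 stand above all others, which run from 25.7 to 402.

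Replicate 2 was the higher one at most member summits and over the whole list. Of the 17 member summits with a peak in both ranked lists, 13 (76.5%) had the higher signal in replicate 2, with a median ratio of replicate 2 to replicate 1 of 1.14. Over all summits this was 3879 of 5075, or 76.4%, with a median ratio of 1.24. Summits in the list of each replicate made up 12 of the 18 member summits, 66.7%, and 50.2% of all 5750. The 9 synthetase summits had a median signal of 222 (85.7 to 402) and the 9 initiation factor summits 136 (25.7 to 2084). The initiation factor summits include both of eIF3h, and the 25.7 is its second, which was in the list of neither replicate. The median of all 2428 summits within 1000 bp of a coding start was 118.

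Counted by complex, the eIF3 genes had a summit at 3 of 16, eIF2B at 1 of 5, eIF2 itself at 0 of 3 and the eIF4 genes at 0 of 13, against 18.9% of all protein-coding genes. The counts for eIF3 and eIF2B were close to that share. In the eIF2 complex, eIF2alpha, the subunit phosphorylated under stress, had no ranked peak near its start, while eIF2beta and eIF2gamma had ranked peaks below the threshold. Of the 13 eIF4 genes, 7 had no ranked peak within 1000 bp, among them eIF4E1, for the main cap-binding protein, and eIF4G1, for the scaffold that binds it, which lies on chromosome 4. The 0 of 13 for eIF4 holds for the thresholded list only, since a strong peak at eIF4EHP is absent from it.

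eIF4EHP encodes a cap-binding protein that represses translation, and its peak would have been the third strongest among the members. In the ranked list for both replicates it had a signal of 927, 449 in replicate 1 and 480 in replicate 2, with a summit at 24109205 on arm 3R, 245 bp upstream of eIF4EHP and 131 bp upstream of the divergent gene CG18428. It passed the IDR threshold and ranked 60 of 65647, but it is 1 of 104 such peaks that the thresholded list leaves out. Only 56 peaks of the thresholded list were stronger. Counting ranked peaks with an IDR of 0.01 or less, 9 of 44 initiation factor genes had a summit, 20.5%, against 19.3% of all protein-coding genes. This count was added after the data had been seen, and why the peak was left out was not tested.

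Other members came close to the limits. On the far side of 1000 bp, the nearest summits were those of eIF4G2 at 1067 bp downstream (signal 146, 57.4 in replicate 1 and 87.9 in replicate 2), eIF3d1 at 1076 bp upstream (signal 26.8) and eIF2Bgamma at 1280 bp upstream (signal 84.9). This eIF3d1 summit lay 68 bp from a start of GILT2, and the eIF2Bgamma summit 18 bp from one of CG8187. The same eIF3d1 summit matched no replicate 1 peak and a replicate 2 peak of 12.7. A stronger eIF3d1 summit lay farther out, 1284 bp upstream, with 85.8 in the joint list, 44.5 in replicate 1 and 45.0 in replicate 2. Only the replicate 1 list held it. Below the IDR threshold, the strongest ranked peaks within 1000 bp were at eIF1, with 78.1 in the joint list, 46.3 in replicate 1 alone and 27.6 in replicate 2 alone, at eIF4G2, with 65.4, 23.9 and 38.2, and at eIF2Bdelta, with 64.2 and 32.4 in replicate 1. The next was at ArgRS-m, with 62.5, 36.7 and 22.6. The signal of eIF1 was just under the 79.6 of eIF3m, which passed, and the peaks of eIF4G2, eIF2Bdelta and ArgRS-m below the threshold were weaker.

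Of the 77 genes, 17 had a thresholded summit, 36 had only ranked peaks below the threshold, eIF4EHP had the peak left out, and 23 had no ranked peak within 1000 bp. Any ranked peak at all was near 27 of 33 synthetase genes (81.8%) and 27 of 44 initiation factor genes (61.4%), against 67.6% of all protein-coding genes. The synthetase genes with none were GlnRS, GlyRS and TrpRS in the cytoplasmic set and AsnRS-m, AspRS-m and TyrRS-m in the mitochondrial set. The cytoplasmic synthetases AlaRS, AsnRS, CysRS, HisRS, LeuRS, LysRS, MetRS and TyrRS had ranked peaks below the threshold, with signals of 8.89 to 52.3. The highest of these, at AlaRS, was below the 85.7 of ValRS, the lowest cytoplasmic signal past the threshold.

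**Figure D3:**
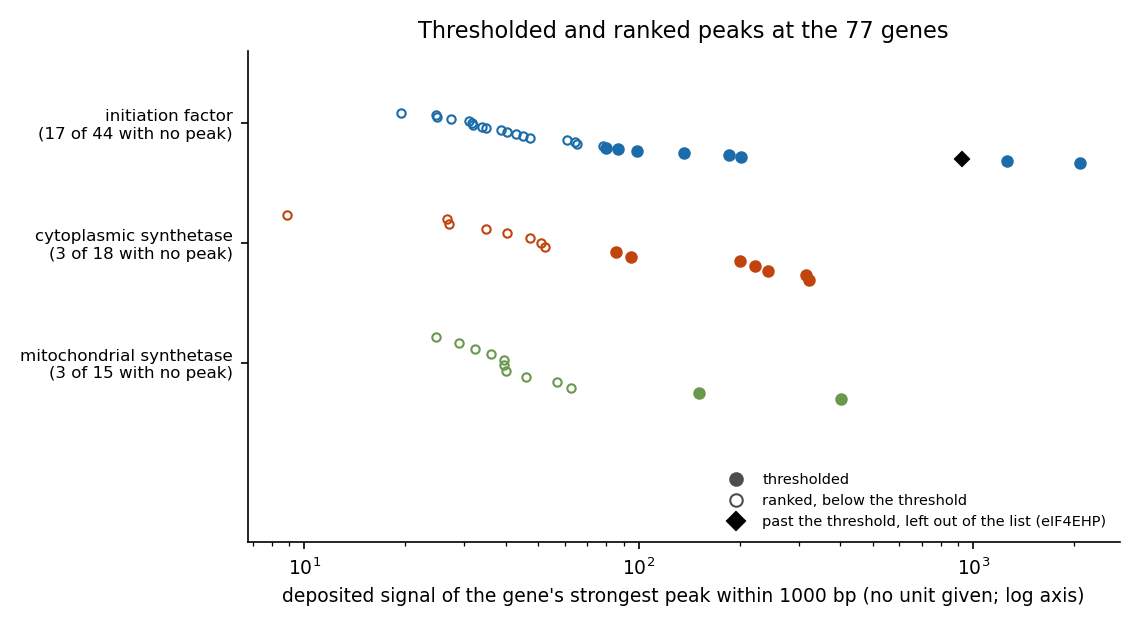
Deposited signal (log axis, no unit given) of the strongest peak within 1000 bp of a transcript start for each of the 77 genes, 1 point a gene, by family. Filled circles passed the threshold, open circles did not, and the diamond is the eIF4EHP peak of 927 that the thresholded list leaves out, and 17 initiation factor, 3 cytoplasmic and 3 mitochondrial synthetase genes had no peak.

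Summits of synthetase genes were shared with a neighbouring gene in every case. At all 9 synthetase genes with a summit, another coding gene had a transcript start within 1000 bp of the same summit, as at 6 of 8 initiation factor genes and at 1531 of 2638 protein-coding genes with a summit, 58.0%. All 9 also had a divergent start of another coding gene at most 1000 bp from a start of their own. Among all protein-coding genes with a summit and such a divergent start, 1387 of 1532 shared the summit, 90.5%, so sharing was common to that arrangement. The partners were CG17260 at SerRS, AP-1sigma, a clathrin adaptor subunit gene, at GluProRS, Hem, a WAVE complex gene, at IleRS, Patsas at ThrRS and CG8578 at ArgRS. Nmda1 was the other gene at AspRS, the histone demethylase gene Kdm4B at ValRS, Dhc64C at LeuRS-m, and CG42304 and Snup, for snurportin, at ProRS-m. The 2 initiation factor genes with an unshared summit were eIF2D and eIF1A.

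With each summit given to the coding gene of the nearest transcript start alone, 2 of 33 synthetase genes and 7 of 44 initiation factor genes had one, against 14.1% of all protein-coding genes. The 2 were IleRS and ThrRS, both cytoplasmic. Several of these differences in distance are small against the width of a peak, for which the median is 336 bp. The summit was 142 bp from GluProRS and 118 bp from AP-1sigma, 183 bp from ArgRS and 148 bp from CG8578, 21 bp from SerRS and 13 bp from CG17260, and 198 bp from ThrRS and 268 bp from Patsas. At ValRS it was 433 bp from the synthetase start and 80 bp from that of Kdm4B, and at LeuRS-m 885 bp from the synthetase start and 719 bp from that of Dhc64C. At ValRS and LeuRS-m the synthetase start was the farther one by more than 100 bp.

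**Figure D4:**
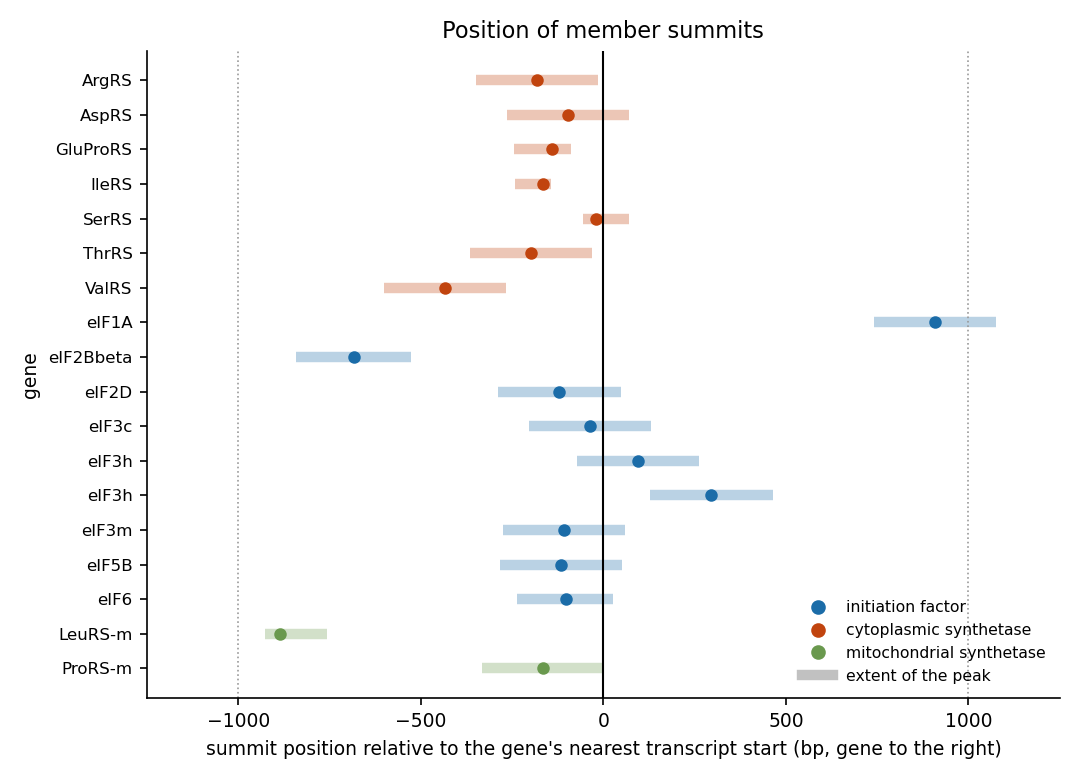
Position of the 18 summits (points) and the extent of their peaks (bars) relative to the nearest transcript start of the member gene, in bp, with every gene drawn to read to the right and the 1000 bp limit dotted. All 9 synthetase summits lie upstream of that start, while eIF1A and both eIF3h summits lie downstream. The side was not counted over all summits.

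The synthetase genes with a summit all had a head-to-head start, defined as a start of another coding gene on the opposite strand, reading away, with at most 1000 bp between the starts. For AspRS the closest such start, that of Lfg, faces another of its starts, and at the start nearest the summit the divergent gene was Nmda1, 54 bp away, with the summit inside Nmda1 and not between the pair. This arrangement was found for 16 of 18 cytoplasmic synthetase genes (88.9%), 7 of 15 mitochondrial ones (46.7%) and 21 of 44 initiation factor genes (47.7%), against 36.2% of all protein-coding genes. Among head-to-head genes, summits were near 7 of 16 cytoplasmic synthetase genes (43.8%), 2 of 7 mitochondrial ones (28.6%) and 6 of 21 initiation factor genes (28.6%), against 30.3% of all head-to-head protein-coding genes. Among genes with no head-to-head start, they were near 0 of 10 synthetase genes (exact upper limit 30.8%) and 2 of 23 initiation factor genes (8.70%), against 12.4% of all such protein-coding genes. The mitochondrial synthetases and the initiation factors stood close to other head-to-head genes, and the exact interval of the cytoplasmic synthetases, 19.8 to 70.1, contained 30.3%. A single summit between 2 such starts counts for both genes, and this split was chosen after the data had been seen.

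**Figure D5:**
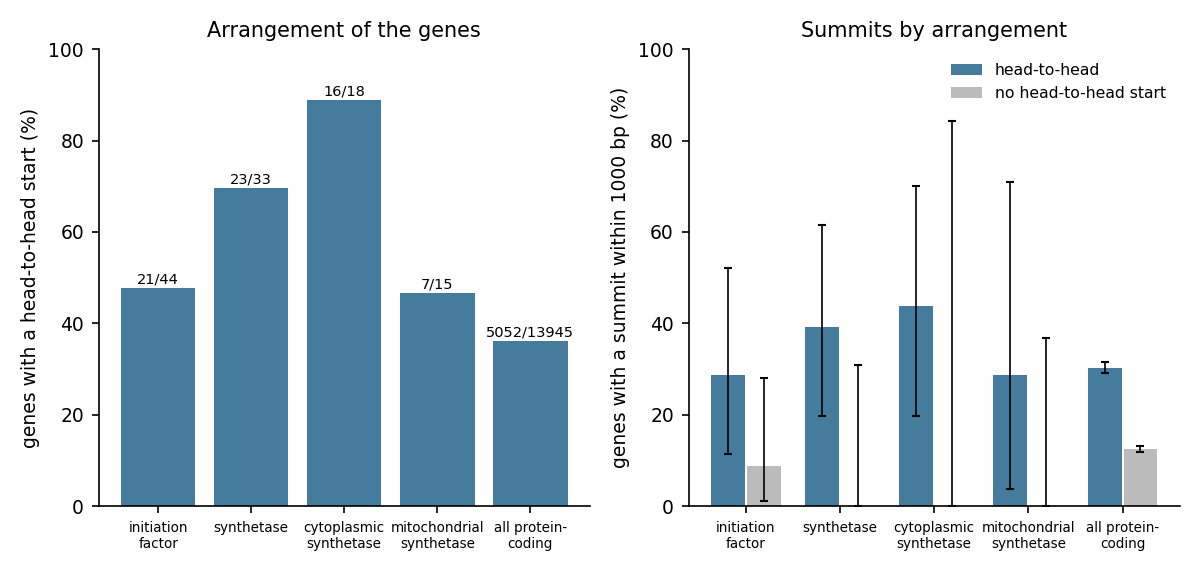
Left, share of genes in percent with a divergent start of another coding gene at most 1000 bp away; right, share of genes with a summit among those with such a start (blue) and those without (grey), with 95% exact binomial intervals. The cytoplasmic synthetases are highest on the left at 88.9%, and in every group the blue bar is above the grey one.

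Promoter motifs were searched for in the promoters of all members, without a split by summit, and around the member summits. The DNA replication-related element DRE, searched as TATCGATA, was in the promoter (250 bases before to 50 after the gene's start) of 12 of 44 initiation factor genes (27.3%) and 5 of 33 synthetase genes (15.2%), against 9.36% of all protein-coding genes. The core of promoter motif 1, GGTCACAC, was in 6 of 44 and 4 of 33 (13.6% and 12.1%), against 7.70%. TATAAA was in 20 of 44 and 18 of 33 (45.5% and 54.5%), against 45.8%, and GAGAG, bound by GAGA factor, in 7 of 44 and 6 of 33 (15.9% and 18.2%), against 29.7%. CACGTG was in 3 and 2 promoters and TGATGCAA, a site of the ATF4 type, in 0 of 77, against 586 and 114 of all 13945. In 201 bp around the 18 member summits, DRE was present at 2, eIF6 and AspRS, and the motif 1 core at 2, ProRS-m and ValRS, shares of 11.1% each, against 2.59% and 1.65% of all summits near a coding start. GAGAG was present at 2 of the 18, ArgRS and eIF3c, against 24.4%. TATAAA was present at 6 of the 18 (33.3%), close to the 35.5% of all summits near a coding start. A match is a description of these letters and was not tested as a site of binding.

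Of the other genes of protein synthesis, elongation and termination factors had a summit at 7 of 12 (58.3%), beside 22.1% of the members and 18.9% of all protein-coding genes. These differences were not tested, and no interval or count by nearest start is given for this list. The count was 5 of 12 in replicate 1 alone, against 14.3% of all protein-coding genes, and 2 of 12 in replicate 2 alone, close to the 14.9% of all protein-coding genes, so most of them were in the thresholded list of at most 1 replicate. They were eEF1alpha1 and eEF1alpha2, which deliver charged tRNA to the ribosome, eEF1gamma, eEF5, the release factors eRF1 and eRF3, and HBS1, a ribosome rescue factor. Their signals were modest, with 133 at eEF1alpha1 (78.1 in replicate 1 and 48.8 in replicate 2) and 129 at eEF1gamma (56.0 and 74.4) as the highest. HBS1, eRF1, eEF5 and eRF3 shared the summit with another coding gene, CG12025, Rbbp5, ppk29 and SC35 in that order. None of 6 further aminoacylation genes had a summit, namely alpha-PheRS and beta-PheRS, which the naming rule leaves out, AIMP1, AIMP2, AIMP3 and Slimp. With those 2 phenylalanine genes set beside the cytoplasmic synthetases, the genes with a summit were still 7.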

How the data were processed

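Peak lists, on dm6 per the labels, came from chromatin immunoprecipitation and sequencing of 2 replicates. The authors deposited, for each replicate and for both together, a ranked list and a list thresholded by IDR, and a conservative set. The aligner and peak caller are not given in the sources used here. Every list was derived from the replicate alignments and a further file that also entered the tracks of fold over control, per the deposited README files, and thresholded lists used 1 more file. Peak signal, as deposited, has no stated unit. The −log10 IDR, a score deposited by the authors in the ranked lists, was used for thresholds.

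Positions are 1-based. Peak ends lay within the arm lengths of the RefSeq sequence of that assembly, and genes came from Ensembl BDGP6. Summits on the arms were kept (5750 of 5753), and 41 protein-coding genes elsewhere were left out. A replicate's signal is that of its ranked peak with the nearest summit at most 100 bp away. Shares of genes with a summit, for the families and all protein-coding genes, have 95% exact (Clopper-Pearson) intervals. No hypothesis test was made. Members and lists were chosen with earlier results of these data known. Named genes were all members with a summit, the 3 nearest beyond the limit, the 5 with the strongest unthresholded peaks, and the listed pathway genes with a summit. Of 46 pathway names, 41 matched a symbol. Assignment was checked on planted positions. Python 3.11.15, pandas 2.3.3 and scipy 1.17.1 were used.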

Additional observations from a re-analysis of the deposited data

How the results depend on the processing

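Of the 65 alternative values for the 4 families and all protein-coding genes, 50 were within 1.5 times the reported count. The values are not independent, since the synthetase set holds both compartments, and some settings were added after the data had been seen. Counts were compared even where the number of genes differed. With head-to-head genes alone the synthetase counts could not move, since every synthetase gene with a summit had that arrangement. Leaving out a replicate gave 6 to 7 initiation factor genes, 8 to 8 synthetase genes, of which 6 to 6 cytoplasmic and 2 to 2 mitochondrial, and 1997 to 2079 of all protein-coding genes. Given to the nearest start alone, summits were at 2 synthetase genes, 2 cytoplasmic and 0 mitochondrial. The other synthetase summits lay nearer a start of another coding gene. With this assignment the cytoplasmic share fell below that of all protein-coding genes. Within 500 bp, 1 mitochondrial synthetase gene had a summit (6.67%, against 15.8% of all protein-coding genes), as LeuRS-m lies beyond. With all ranked peaks, counts were 27 for initiation factors, 27 for synthetases, 15 cytoplasmic and 12 mitochondrial, and 9426 for all. Restricting to genes with no head-to-head start gave 2 initiation factor genes, 0 synthetase genes (0 cytoplasmic, 0 mitochondrial) and 1106 of all, and to head-to-head genes 1532 of all, by fewer genes. The conservative set gave 8, 9, 7 and 2, with eIF2Bdelta in place of eIF3m. Read depth is unknown, so the limit it sets on weak peaks was not estimated. No paired analysis was possible because the labels define a single group.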

Other observations

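Regulators of initiation were looked at beside the factors. Of 13 matched genes, 5 had a summit within 1000 bp (38.5%), against 18.9% of all protein-coding genes. The count was 2 of 13 in replicate 1 alone, close to the 14.3% of all protein-coding genes, and 4 of 13 in replicate 2 alone, against 14.9%. They were pAbp, the poly(A)-binding protein gene (signal 154 in the joint list, 59.9 in replicate 1 alone and 93.4 in replicate 2 alone), Paip2, for a protein that binds it (146, 57.6 and 85.0), and crc, which encodes ATF4 (111, with 53.7 in replicate 2 and no matching peak in replicate 1). S6k, the ribosomal protein S6 kinase gene, had 91.9 (29.5 and 55.9) and pix 78.1 (24.9 and 45.8). The summits given for crc, S6k and pix were shared with another coding gene, CG46314, kri and Srp68 in that order. The 8 without a summit were the eIF2alpha kinase genes Gcn2 and PEK, Thor, for the 4E-binding protein, Lk6, NAT1, PPP1R15, cup and mxt.

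Among 10 matched mitochondrial translation factor genes, 1 had a summit, mIF2, for mitochondrial initiation factor 2, with 155 in the joint list, 75.9 in replicate 1 alone and 77.2 in replicate 2 alone, at 40 bp upstream of its start. It had 2 summits near that start, and no other coding start lay within 1000 bp of the stronger. That 1 of 10 stood beside 13.3% of the mitochondrial synthetases and 18.9% of all protein-coding genes.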
